A study of Mus musculus with 4 samples.

Results

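The loci of 7 inflammatory genes, Cxcl5, Cxcl1, Cxcl2, Ccl2, Ccl7, Ptgs2 and Il6, were examined for DNase I hypersensitive sites in 4 windows of the mm9 genome. Every region that any of the 4 deposited lists placed in a window was taken: chr5:91080000-91420000 for Cxcl5, Cxcl1 and Cxcl2, chr11:81800000-81920000 for Ccl2 and Ccl7, chr1:151890000-152010000 for Ptgs2 and chr5:30280000-30400000 for Il6. The windows held 136 of the 202687 listed regions. Overlapping regions were joined across lists, which gave 48 sites of 103288 in all. Sites are lettered from the start of their window, so that Cxcl-a is the first site of the Cxcl5, Cxcl1 and Cxcl2 window.

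The libraries come from 7438 cells, mouse mammary cells that carry a glucocorticoid receptor (GR) tagged with GFP and an estrogen receptor (ER) tagged with Cherry, both under a tetracycline-regulated promoter. In all 4 groups cells were plated 48 h before the experiment in charcoal-dextran serum with tetracycline, and tetracycline was withdrawn 24 h before hormone, so the untreated cells had both tagged receptors induced as well. Cells were then left untreated or received, for 30 min, 100 nM dexamethasone (Dex, a synthetic glucocorticoid), 100 nM estradiol (E2, an estrogen) or 100 nM of each (Dex+E2). Each treatment had 1 library, so that no difference could be set against a spread between replicates and no p-value was computed. The series asks how hypersensitivity changes when both hormones are given together. RNA was not measured here, so repression of these genes by glucocorticoid is background knowledge and not a result of these libraries.

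Cxcl5, Cxcl1 and Cxcl2 encode chemokines that attract neutrophils, and Ccl2 and Ccl7 encode chemokines that attract monocytes. Ptgs2 encodes the inducible cyclooxygenase that makes prostaglandins, and Il6 encodes the cytokine interleukin 6. Transcription of such genes is switched on by NF-kB and AP-1 factors, and ligand-bound GR is known to lower it, often without direct contact with a GR element, which is one basis of the anti-inflammatory use of glucocorticoids.

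The promoter sequences of Cxcl1, Cxcl2 and Il6 are shown because they carry an NF-kB type motif within their last 100 bases before the start. The promoter table used here, from RefSeq (GRCm38.p6), was matched for 4 of the 7 genes, Cxcl1, Cxcl2, Il6 and Ptgs2, and the 250 bases before the start were searched on both strands. The motif, GGGA and TTCC with any 2 bases between them, was in 3 of these 4 promoters and in 1.21% of the 32851 promoters of the table. Printed 5′ to 3′, with bases of the motif in capitals, they are on the plus strand of GRCm38.p6 at chr5:90890995-90891244, chr5:90903649-90903898 and chr5:30012864-30013113. These positions belong to another build than the mm9 windows and cannot be laid on them.
Cxcl1: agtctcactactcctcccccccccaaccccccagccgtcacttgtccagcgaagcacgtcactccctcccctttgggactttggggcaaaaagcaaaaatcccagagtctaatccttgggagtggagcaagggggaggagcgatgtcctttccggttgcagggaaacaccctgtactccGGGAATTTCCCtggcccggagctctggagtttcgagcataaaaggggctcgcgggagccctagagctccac
Cxcl2: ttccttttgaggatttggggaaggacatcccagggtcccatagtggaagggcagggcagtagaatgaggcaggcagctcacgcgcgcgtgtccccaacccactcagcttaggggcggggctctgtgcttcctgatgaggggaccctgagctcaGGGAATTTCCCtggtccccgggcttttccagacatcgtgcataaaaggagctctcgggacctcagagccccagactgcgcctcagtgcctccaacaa
Il6: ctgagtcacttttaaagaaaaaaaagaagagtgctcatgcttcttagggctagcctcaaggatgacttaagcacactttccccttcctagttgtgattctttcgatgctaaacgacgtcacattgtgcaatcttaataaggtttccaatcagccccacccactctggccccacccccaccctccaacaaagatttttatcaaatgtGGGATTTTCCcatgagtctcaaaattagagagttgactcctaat
In Cxcl1 and in Cxcl2 the letters matched on both strands, as 2 overlapping matches that share all but their outer bases. The Cxcl1 stretch lay from 71 to 61 bases before the start, the Cxcl2 stretch from 97 to 87 bases and the Il6 match from 44 to 35 bases. The stricter NF-kB letters, with CT between GGGA and TTCC (0.140% of promoters), the full GR site, AGAACA and TGTTCT with any 3 bases between them (0.00913%), its arm AGAACA (16.1%) and the ER site, GGTCA and TGACC with any 3 bases between them (0.0639%), were in none of the 4 promoters. The AP-1 letters TGANTCA (6.75%) were in the Il6 promoter only, 249 to 243 bases before its start. A match describes letters and is not a measured site. No mm9 gene annotation was used, so the sites below are tied to a window and not to a gene within it. In GRCm38 the genes Ppbp, Pf4, Cxcl3 and Cxcl15 lie between Cxcl5 and Cxcl1, and Ccl11 follows Ccl7.

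The untreated list held 42 regions in the windows, the Dex list 36, the E2 list 23 and the Dex+E2 list 35. These were 0.0638%, 0.0702%, 0.0648% and 0.0699% of their lists, so the loci followed the length of the lists, which ran from 35496 regions after E2 to 65879 in untreated cells. The regions covered 38.1 kb in untreated cells, 27.1 kb with Dex, 14.8 kb with E2 and 24.2 kb with both hormones. Densities are the authors' values, scaled per library, and 1 tag was worth 0.255 in the untreated library, 0.245 with Dex, 0.200 with E2 and 0.227 with both hormones. Summits in the windows held 13 to 325 tags. Intervals are exact 95% intervals for these tags taken as plain counts, and cover counting error only. A summit is the highest value of its region, and the intervals make no allowance for that choice.

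Among the 48 sites, 23 (47.9%) were in all 4 lists, against 20% of all joined sites, and 42 were in the untreated list, against 63.2%. The Ptgs2 window had 7 such sites of 9, the Cxcl window 12 of 26, the Ccl window 2 of 10 and the Il6 window 2 of 3. Of the 42 sites found in untreated cells, 31 were also in the Dex list, 23 in the E2 list and 28 in the Dex+E2 list. For all untreated sites the shares were 48.7%, 37.5% and 49.2%, against 73.8%, 54.8% and 66.7% here. The untreated list alone held 11 sites (22.9%, against 26.0% of all sites), with maximum densities of 6.63 to 11.2. Sites in all 4 lists had 10.5 to 82.9 in untreated cells, so those in the untreated list alone were weak ones. All 23 sites of the E2 list were also in each other list, against 61.2% of all sites of the E2 list. Regions in the windows were denser than their lists. Their median maximum density was 17.5 against 8.93 for untreated cells and 10.4 against 7.40 for E2. The excess was smaller with Dex, at 8.69 against 7.84, and with both hormones, at 10.2 against 8.17. Whether the shares in this paragraph differ from those of equally dense sites elsewhere was not tested.

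**Figure D1:**
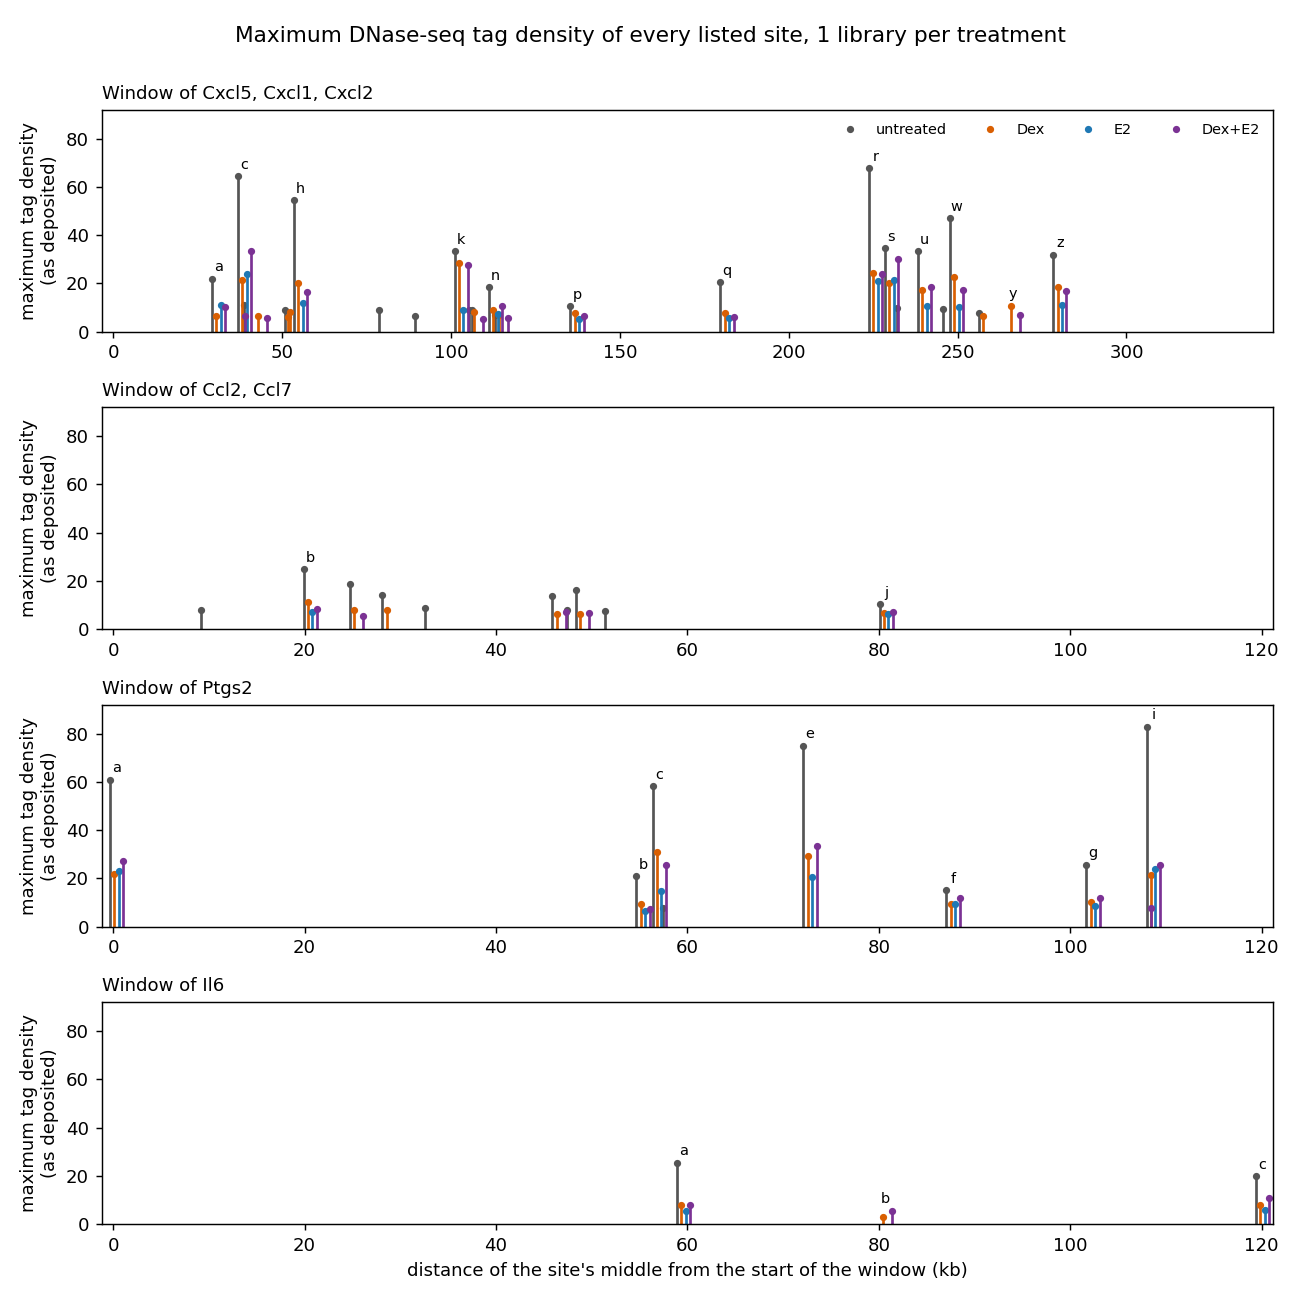
Maximum tag density as deposited (vertical axis) of every listed site against the distance of its middle from the start of its window in kb, with the 4 libraries of a site drawn side by side as stems. Letters mark the sites found in all 4 lists, Cxcl-y and Il6-b; untreated stems are the tallest at all lettered sites other than Cxcl-y and Il6-b, which the untreated list lacks.

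At all 23 sites found in the 4 lists, the deposited maximum density was highest in untreated cells. This was so at 90.1% of all 20687 shared regions, where the median maximum was 30.1 in untreated cells, 14.7 with Dex, 10.2 with E2 and 15.4 with both hormones. The general shift between libraries, a median log2 ratio to untreated of −1.04 with Dex, −1.56 with E2 and −0.95 with both hormones, cannot be told apart from a difference in scaling or quality between single libraries. Folds are therefore given relative to these medians: a relative fold of 1 means that a site moved like the median shared region. In 1 comparison of 5 a site reached 2-fold, Cxcl-k in Dex+E2 over E2.

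The Cxcl5, Cxcl1 and Cxcl2 window had its sites in groups, from Cxcl-a to Cxcl-h, from Cxcl-i to Cxcl-p and from Cxcl-r to Cxcl-z, with Cxcl-q apart from these. At Cxcl-r (chr5:91304821-91306491), which had the highest untreated density of the window, the maximum densities were 67.8 in untreated cells, 24.5 with Dex, 21.2 with E2 and 24 with both hormones, with average densities of 12.4, 5.12, 6.20 and 5.26 in the same order. At Cxcl-c (chr5:91118262-91119558), the maximum densities were 64.5 in untreated cells, 21.3 with Dex, 24 with E2 and 33.3 with both hormones, with average densities of 11.4, 4.39, 4.90 and 6.67. At Cxcl-h (chr5:91134896-91136106), the maximum densities were 54.6 in untreated cells, 20.3 with Dex, 11.8 with E2 and 16.3 with both hormones, with average densities of 13.5, 4.71, 3.47 and 3.91. As deposited, Dex+E2 was highest of the hormone libraries at Cxcl-c and Dex at Cxcl-h, with near equal values at Cxcl-r. The highest and the next hormone value overlapped within counting error at Cxcl-c and Cxcl-h. Divided by the library medians, the order was another one. At Cxcl-c it was 1.45 with Dex, 2.35 with E2 and 2.16 with both hormones. Cxcl-h had 1.38, 1.16 and 1.06 in the same order, and Cxcl-r had 1.67, 2.08 and 1.56. After division by the medians, Dex over untreated was 0.676 (0.524 to 0.866) at Cxcl-c, 0.763 (0.585 to 0.987) at Cxcl-h and 0.739 (0.581 to 0.934) at Cxcl-r. The same ratio for E2 was 1.10 (0.876 to 1.37), 0.638 (0.470 to 0.855) and 0.922 (0.729 to 1.16).

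Cxcl-k (chr5:91182545-91183569), singled out after its values were seen, was the 1 site of the 23 with counting intervals above 1 for Dex both without and with E2. Its maximum densities were 33.4 (27.9 to 39.6) in untreated cells, 28.4 (23.5 to 34.1) with Dex, 9.00 (6.56 to 12.0) with E2 and 27.5 (22.8 to 32.8) with both hormones. Average densities were 8.95, 5.42, 2.36 and 5.57. The E2 value was low and did not overlap the other 3 within counting error, and the Dex and Dex+E2 values overlapped the untreated one. Its relative Dex over untreated ratio was 1.74-fold (1.34 to 2.25), Dex+E2 over E2 was 2.02-fold (1.42 to 2.91) and E2 over untreated was 0.795-fold (0.553 to 1.12). Of all shared regions, 9.66% were at or above its Dex over untreated value, 1.74% at or above its Dex+E2 over E2 value, and 2.26% had both ratios at least as high as its smaller one. The 2-fold call sits at its limit: the log2 ratio of 1.01 for Dex+E2 over E2 became 0.92 with the upper quartile in place of the median and 0.72 with average densities. With average densities the log2 ratio for Dex over untreated was 0.28 in place of 0.80. As deposited it was −0.23, so the Dex density itself was not above the untreated one.

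Among the sites from Cxcl-r to Cxcl-z, Cxcl-s (chr5:91309197-91311642) was the broadest site of the window, at 2446 bp. There the maximum densities were 34.7 in untreated cells, 20.3 with Dex, 21.4 with E2 and 30.2 with both hormones, with average densities of 5.24, 3.41, 5.37 and 5.94, and the Dex+E2 list split it into 2 regions. Its Dex+E2 and untreated values overlapped within counting error. Relative to the medians, both E2 libraries were high for it. E2 over untreated was 1.82-fold (1.40 to 2.36) and Dex+E2 over Dex was 1.41-fold (1.07 to 1.88). The E2 list held only chr5:91310465-91311097 of this site, and the 2 Dex+E2 regions had maxima of 13.6 and 30.2. Positions of the summits are not given, so the maxima compared may come from different parts of the site. At Cxcl-w (chr5:91329123-91330322), the maximum densities were 47.2 in untreated cells, 22.5 with Dex, 10.4 with E2 and 17.5 with both hormones, with average densities of 11.4, 5.20, 3.22 and 4.0. Here E2 was low instead, at 0.650-fold (0.469 to 0.889) over untreated. At Cxcl-u (chr5:91319581-91320857), the maximum densities were 33.4 in untreated cells, 17.4 with Dex, 10.6 with E2 and 18.6 with both hormones, with average densities of 5.83, 3.23, 2.13 and 3.65. At Cxcl-z (chr5:91359280-91361243), the maximum densities were 31.9 in untreated cells, 18.6 with Dex, 11.0 with E2 and 16.8 with both hormones, with average densities of 5.07, 4.09, 3.01 and 4.40, the higher of 2 regions being used in the Dex and Dex+E2 lists. Relative folds for Dex over untreated were 1.07 (0.787 to 1.43) at Cxcl-u and 1.20 (0.887 to 1.60) at Cxcl-z, both with intervals that included 1. With average densities Cxcl-z was higher relative to the medians, at log2 ratios to untreated of 0.69 with Dex, 0.58 with E2 and 0.61 with both hormones. The regions averaged differed in width, at 1964 bp in untreated cells, 888 bp with Dex, 597 bp with E2 and 751 bp with both hormones.

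Weaker sites of all 4 lists in this window were Cxcl-a, Cxcl-n, Cxcl-p and Cxcl-q. At Cxcl-a (chr5:91110761-91111518), the maximum densities were 21.9 in untreated cells, 6.37 with Dex, 11.2 with E2 and 10.2 with both hormones, with average densities of 5.64, 1.82, 2.61 and 2.48. Dex was the low library there, at 0.595-fold (0.368 to 0.931) over untreated relative to the medians, and Dex+E2 over E2 was 0.603-fold (0.398 to 0.908). Of all shared regions, 0.445% had both Dex ratios at or below its larger one; this site too was singled out after its values were seen. At Cxcl-n (chr5:91192799-91193614), the maximum densities were 18.6 in untreated cells, 9.06 with Dex, 7.40 with E2 and 10.4 with both hormones, with average densities of 3.96, 1.85, 1.80 and 2.57. At Cxcl-p (chr5:91216999-91217591), the maximum densities were 10.5 in untreated cells, 7.59 with Dex, 5.40 with E2 and 6.58 with both hormones, with average densities of 2.91, 1.73, 1.04 and 2.01. At Cxcl-q (chr5:91261349-91262181), the maximum densities were 20.4 in untreated cells, 7.84 with Dex, 5.60 with E2 and 5.90 with both hormones, with average densities of 4.18, 1.65, 1.44 and 1.06. Hormone values of these last 3 sites lay between 5.40 and 10.4 and overlapped one another within counting error at each site.

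Sites seen with Dex and Dex+E2 but in neither other list numbered 3 of 48 (6.25%, against 1.92% of all sites), and 2 of them lay in the Cxcl window. Cxcl-y (chr5:91346084-91346729) had maximum densities of 10.8 with Dex and 7.03 with both hormones and average densities of 3.07 and 2.09. Its counting intervals of 7.83 to 14.5 and 4.78 to 9.98 overlapped. Cxcl-e (chr5:91123404-91123901) had 6.61 with Dex and 5.67 with both hormones, with averages of 2.03 and 1.64. Both were weak sites, and absence from a list says that the authors did not call the site there and is no measurement of closed chromatin. The E2 and Dex+E2 lists alone shared 0 of the 48 sites, against 1.32% of all sites.

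The remaining Cxcl sites were found in 1 to 3 lists. Cxcl-l (chr5:91187058-91187785) had maximum densities of 8.93 in untreated cells, 8.08 with Dex and 5.44 with both hormones and averages of 1.94, 2.04 and 1.46. Cxcl-o (chr5:91194773-91195243) had 6.89 in untreated cells, 7.10 with Dex and 5.67 with both hormones, with averages of 1.57, 2.11 and 1.68. Both were missing after E2 alone, and their values in the other lists overlapped within counting error. Cxcl-g (chr5:91132528-91133276) had 9.18 in untreated cells and 8.33 with Dex, with averages of 2.17 and 1.95. Cxcl-x (chr5:91337910-91338494) had 7.91 in untreated cells and 6.61 with Dex, with averages of 2.51 and 1.99. These were in the untreated and Dex lists and in neither E2 list. In untreated cells alone were Cxcl-d (chr5:91120478-91121040) at a maximum of 11.2 and an average of 3.42, Cxcl-i (chr5:91160332-91160925) at 9.18 and 2.43, and Cxcl-j (chr5:91171012-91171458) at 6.63 and 2.32. Also in untreated cells alone were Cxcl-m (chr5:91188053-91188626) at a maximum of 8.93 and an average of 2.31, Cxcl-t (chr5:91313791-91314410) at 9.95 and 2.16, and Cxcl-v (chr5:91327329-91327890) at 9.44 and 2.25. All 6 were at or below the untreated density of 11.2, weaker than most sites that the hormone lists kept. After Dex alone Cxcl-f (chr5:91132228-91132479) was listed at a maximum of 5.88 and an average of 1.35, and after Dex+E2 alone Cxcl-b (chr5:91116833-91117394) at 6.58 and 1.72.

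**Figure D2:**
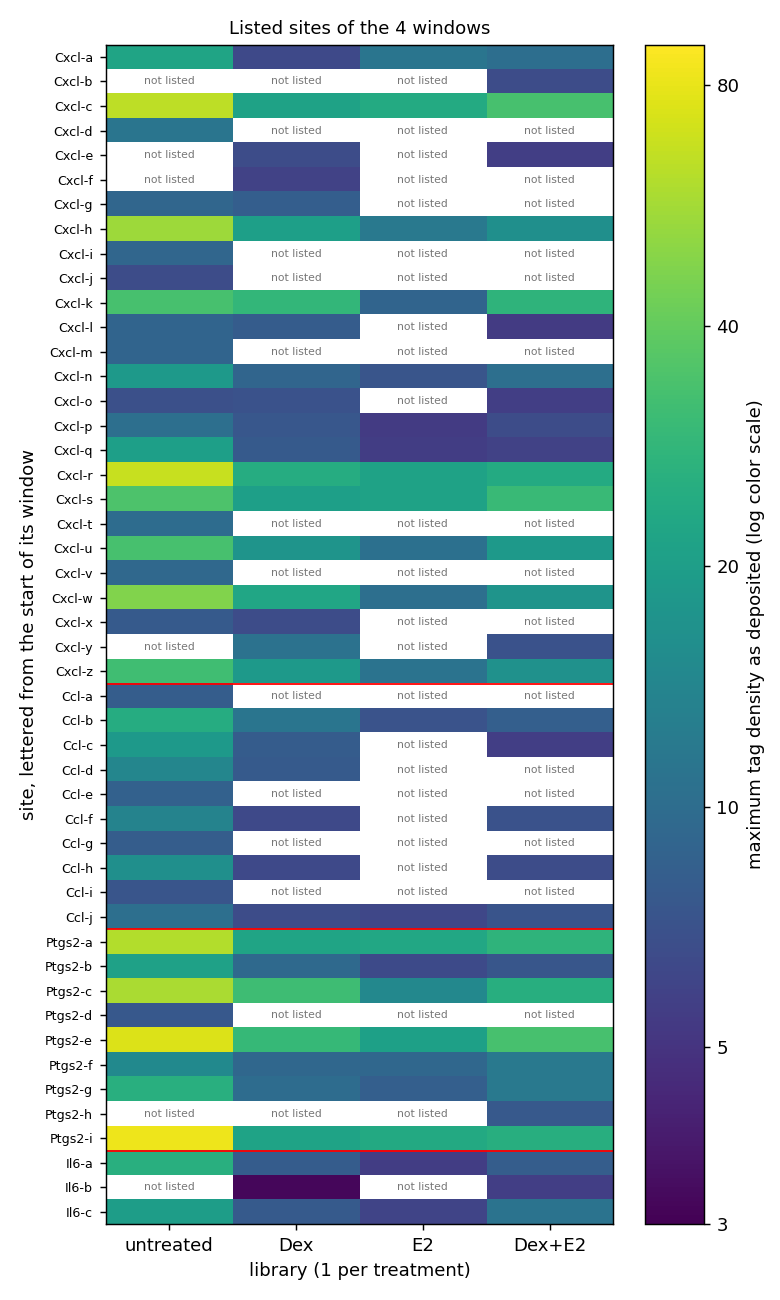
Each row is 1 of the 48 sites and each column 1 library; the color gives the maximum tag density as deposited on a log scale, and white cells were not listed. Red lines part the windows, and the Ptgs2 rows are filled in most columns while the Ccl rows are mostly empty after E2.

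The Ccl2 and Ccl7 window had weak sites, and few of them were listed after E2. The untreated list held 10 regions there, the Dex list 6, the E2 list 2 and the Dex+E2 list 5. At Ccl-b (chr11:81820083-81821096), the densest, the maximum densities were 24.7 in untreated cells, 11.3 with Dex, 7.20 with E2 and 8.39 with both hormones, with average densities of 5.05, 2.38, 1.93 and 1.83 in the same order. At Ccl-j (chr11:81880457-81881088), the maximum densities were 10.5 in untreated cells, 6.61 with Dex, 6.20 with E2 and 7.26 with both hormones, with average densities of 2.51, 2.02, 1.52 and 1.67. These 2 sites were the only ones of the window in all 4 lists. As deposited, Ccl-b was lower in every hormone library, with non-overlapping intervals between untreated (20.1 to 30.2) and Dex (8.25 to 15.0). The 4 deposited intervals of Ccl-j overlapped. Relative to the medians, Dex over untreated was 0.933-fold (0.642 to 1.34) at Ccl-b and 1.30-fold (0.766 to 2.16) at Ccl-j, so both intervals included 1. In relative terms E2 over untreated was 0.859-fold (0.569 to 1.27) at Ccl-b and 1.75-fold (1.06 to 2.86) at Ccl-j.

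Missing after E2 only were 5 of the 48 sites (10.4%, against 5.83% of all sites), and 3 of the 5 were in the Ccl window. Ccl-c (chr11:81824841-81825963) had maximum densities of 18.9 in untreated cells, 8.08 with Dex and 5.67 with both hormones and averages of 3.72, 1.58 and 0.592. Ccl-h (chr11:81848668-81849429) had 16.3 in untreated cells, 6.37 with Dex and 6.58 with both hormones, with averages of 3.81, 1.48 and 1.71. Ccl-f (chr11:81846206-81846951) had 13.8 in untreated cells, 6.37 with Dex and 7.03 with both hormones, with averages of 3.25, 1.65 and 1.90. All 3 were highest in untreated cells, and the Dex and Dex+E2 values of each overlapped within counting error. Ccl-d (chr11:81828411-81829173) was in the untreated and Dex lists, with 14.3 in untreated cells and 7.84 with Dex and averages of 3.57 and 2.03. In untreated cells alone were Ccl-a (chr11:81809623-81810174) at a maximum of 8.16 and an average of 2.69, Ccl-e (chr11:81832923-81833581) at 8.67 and 1.79, Ccl-g (chr11:81847825-81848402) at 8.16 and 1.66, and Ccl-i (chr11:81851661-81852464) at 7.40 and 1.47. The lowest density that the E2 list held in any of the 4 windows was 5.40, or 27 tags. Whether the absence of Ccl sites from the E2 list goes beyond the general shift of that library was not tested.

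The Ptgs2 window held the site with the highest untreated density of the 4 windows, Ptgs2-i, and 7 of its 9 sites were in all 4 lists. At Ptgs2-i (chr1:151998214-151999147), the maximum densities were 82.9 in untreated cells, 21.5 with Dex, 23.8 with E2 and 25.4 with both hormones, with average densities of 24.4, 6.13, 6.89 and 7.44 in the same order. Its untreated summit held 325 tags, and the 3 hormone values were close to each other, with overlapping intervals of 17.3 to 26.6 with Dex, 19.7 to 28.5 with E2 and 20.9 to 30.6 with both hormones. The relative ratio Dex over untreated was 0.533-fold (0.416 to 0.676), the lowest of the 23 sites, and Dex+E2 over E2 was 0.706-fold (0.540 to 0.921). E2 over untreated was 0.847-fold (0.681 to 1.05). Both ratios for Dex were thus below 1 beyond counting error, and 2.03% of all shared regions had both at or below its larger one; the site was singled out after its values were seen.

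At Ptgs2-e (chr1:151962311-151963303), the maximum densities were 75.0 in untreated cells, 29.1 with Dex, 20.6 with E2 and 33.6 with both hormones, with average densities of 18.5, 7.22, 6.04 and 9.26. At Ptgs2-a (chr1:151889842-151890881), which crosses the edge of the window, the maximum densities were 61.0 in untreated cells, 21.8 with Dex, 23.2 with E2 and 27.2 with both hormones, with average densities of 12.9, 4.32, 4.58 and 5.76. At Ptgs2-c (chr1:151946372-151947745), the maximum densities were 58.4 in untreated cells, 31.1 with Dex, 14.6 with E2 and 25.4 with both hormones, with average densities of 11.0, 6.78, 3.20 and 6.77. As deposited, E2 was the lowest library at Ptgs2-e and Ptgs2-c, whereas Dex was the lowest at Ptgs2-a, as at Ptgs2-i. Divided by the library medians, Dex was the lowest at Ptgs2-e too, at 1.98 against 2.02 with E2. The lowest library stayed the same at Ptgs2-a, Ptgs2-c and Ptgs2-i, but the order above it changed. E2 came above untreated at Ptgs2-a (2.27 against 2.03) and above Dex+E2 at Ptgs2-i (2.33 against 1.65). Dex came above untreated at Ptgs2-c (2.12 against 1.94). The relative ratio Dex over untreated was 0.796 (0.638 to 0.988) at Ptgs2-e, 0.732 (0.568 to 0.938) at Ptgs2-a and 1.09 (0.871 to 1.36) at Ptgs2-c. For Dex+E2 over E2 the folds were 1.08 (0.832 to 1.40), 0.776 (0.596 to 1.01) and 1.15 (0.849 to 1.57). With E2 present these 3 intervals all included 1.

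The weaker Ptgs2 sites were Ptgs2-b, Ptgs2-f and Ptgs2-g in all 4 lists, and Ptgs2-d and Ptgs2-h in 1 list each. At Ptgs2-g (chr1:151991957-151992794), the maximum densities were 25.8 in untreated cells, 10.0 with Dex, 8.40 with E2 and 11.8 with both hormones, with average densities of 5.49, 1.97, 2.13 and 2.76. At Ptgs2-b (chr1:151944684-151946031), the maximum densities were 20.9 in untreated cells, 9.55 with Dex, 6.40 with E2 and 7.49 with both hormones, with average densities of 3.89, 2.04, 1.86 and 2.17. At Ptgs2-f (chr1:151977083-151978420), the maximum densities were 15.0 in untreated cells, 9.31 with Dex, 9.40 with E2 and 11.8 with both hormones, with average densities of 3.01, 2.38, 2.94 and 2.72. The 4 intervals of Ptgs2-f overlapped, and relative to the medians it was 1.84-fold (1.23 to 2.75) for E2 over untreated, the highest E2 value of the 23 sites. With average densities both Ptgs2-f and Cxcl-s were more than 2-fold higher in that comparison, at log2 ratios of 1.30 and 1.37. Each average belongs to the region as listed in its own library, and these regions differed in width. Ptgs2-f was listed over 1316 bp in untreated cells and 597 bp with E2, and Cxcl-s over 2201 and 633 bp. By maximum density neither site reached 2-fold, and the part played by width was not tested. Ptgs2-d (chr1:151947997-151948281) was listed in untreated cells alone, at a maximum of 7.65 and an average of 1.83. Ptgs2-h (chr1:151997536-151998001), beside Ptgs2-i, was listed after Dex+E2 alone, at 7.71 and 2.18.

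The Il6 window was the sparsest, with 3 sites. At Il6-a (chr5:30338985-30340230), the maximum densities were 25.5 in untreated cells, 8.08 with Dex, 5.60 with E2 and 8.17 with both hormones, with average densities of 6.13, 2.24, 1.58 and 2.10 in the same order. The untreated value was high and its interval of 20.8 to 31.0 did not overlap the hormone ones, which overlapped one another. The relative folds over untreated were 0.649 (0.424 to 0.971) with Dex, 0.648 (0.410 to 0.994) with E2 and 0.625 (0.414 to 0.923) with both hormones. At Il6-c (chr5:30399586-30400639), which reaches past the end of the window, the maximum densities were 19.9 in untreated cells, 7.84 with Dex, 6.0 with E2 and 10.9 with both hormones, with average densities of 3.71, 1.65, 1.63 and 2.42. Its folds over untreated all had intervals that included 1.

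Il6-b (chr5:30360357-30360928) was the third of the sites found with Dex and Dex+E2 only. It had maximum densities of 3.18 with Dex and 5.67 with both hormones and averages of 0.591 and 1.28. The Dex summit held 13 tags, the fewest of any region in the windows. The deposited Z score of the region was 7.26 after Dex and 13.9 after Dex+E2. In the Dex+E2 list, Cxcl-e, Cxcl-o and Ccl-c had the same maximum density of 5.67 as Il6-b, with Z scores of 5.61, 5.67 and 5.23. The Z score thus differed between sites of the same maximum density. Whether a value as low as that of Il6-b would have been listed at other sites was not tested.

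The comparison of Dex with untreated cells asks where GR activation changed hypersensitivity. Relative to the medians, 0 of the 23 sites were at least 2-fold higher (6.69% of all shared regions) and 0 at least 2-fold lower (0.595%). The median log2 ratio was −0.10 over the sites and −0.01 over all shared regions. By window it was −0.02 for the 12 Cxcl sites, 0.14 for the 2 Ccl sites, −0.32 for the 7 Ptgs2 sites and −0.47 for the 2 Il6 sites. Counting intervals lay below 1 at 8 sites (34.8%), against 13.7% of all shared regions, and above 1 at Cxcl-k alone, against 16.4%. The 8 were Cxcl-a, Cxcl-c, Cxcl-h, Cxcl-r, Ptgs2-a, Ptgs2-e, Ptgs2-i and Il6-a, all between 0.533 and 0.796. These intervals hold no spread between cultures, so the 8 sites cannot be called lower after Dex than in untreated cells. As deposited, 15 of the 23 were at least 2-fold lower, against 54.1% of all shared regions; for E2 over untreated these were 18 and 83.9%, and for both hormones over untreated 13 and 45.8%.

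With Dex+E2 over E2, which isolates Dex in the presence of E2 and shares no library with the former comparison, 1 site was at least 2-fold higher (1.78% of all shared regions) and 0 lower (1.04%). The median log2 ratio was −0.12, against −0.03 over all shared regions. Intervals lay below 1 at Cxcl-a, Cxcl-r and Ptgs2-i (8.92% of all shared regions) and above 1 at Cxcl-k (10.3%). Cxcl-a, Cxcl-r, Ptgs2-i and Cxcl-k were thus on the same side of 1 in both comparisons that isolate Dex. Both Dex libraries lay below both others, relative to the medians, at 6 of 23 sites (18.2% of all shared regions), which were Cxcl-a, Cxcl-q, Cxcl-r, Ptgs2-a, Ptgs2-g and Ptgs2-i. They lay above both others at 3 sites (15.4%), Cxcl-k, Cxcl-u and Cxcl-z. Both shares, 26.1% and 13.0%, are near those of all shared regions.

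**Figure D3:**
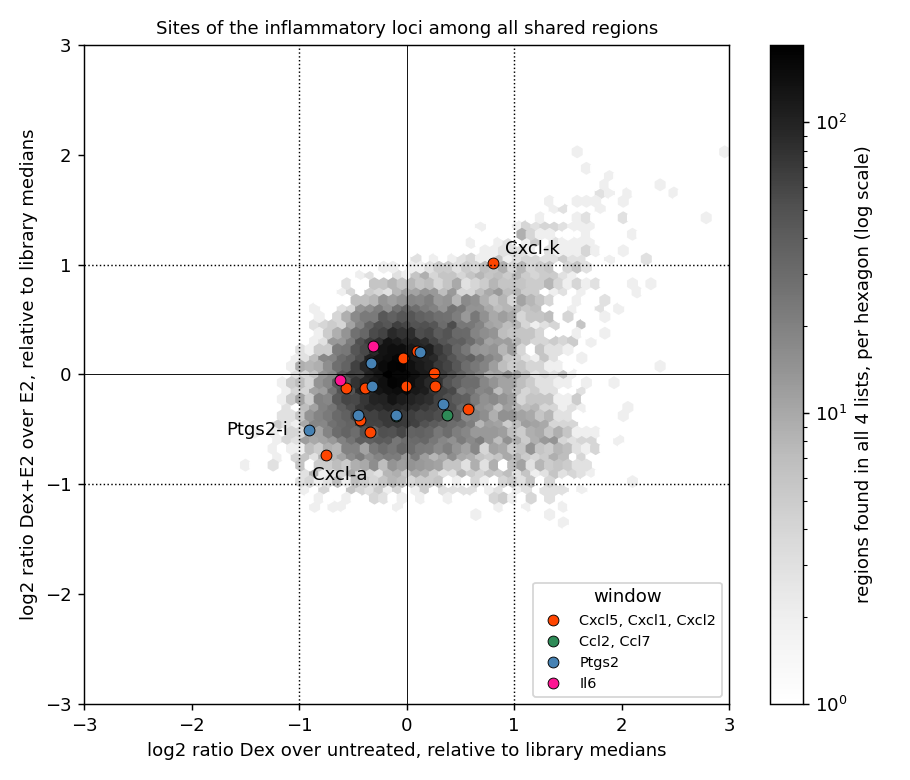
Each dot is 1 of the 23 sites found in all 4 lists, placed by its log2 ratio Dex over untreated (horizontal) and Dex+E2 over E2 (vertical), both relative to the library medians, over gray hexagons that count all shared regions. Dotted lines mark 2-fold; Cxcl-k lies at the upper line, Ptgs2-i and Cxcl-a at the lower left edge of the cloud, and the other sites lie within it; 18 regions fall outside the axes.

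Estradiol over untreated gave 0 sites at least 2-fold higher (7.89% of all shared regions) and 0 at least 2-fold lower (0.445%), with a median log2 ratio of −0.12 against 0.00 over all shared regions. Intervals were above 1 at Cxcl-a, Cxcl-s, Ccl-j and Ptgs2-f (16.4% of all shared regions) and below 1 at Cxcl-h, Cxcl-w, Ptgs2-c and Il6-a (13.8%). With Dex+E2 over Dex, 0 sites were 2-fold higher (1.84%) and 0 lower (0.889%), and the median was 0.03 against −0.02. Cxcl-c, at 1.49-fold (1.14 to 1.97), and Cxcl-s were the sites above 1 beyond counting error (11.7% of all shared regions), and none of the 23 was below (11.3%). Cxcl-s was thus the only site with counting intervals above 1 in both comparisons that isolate E2. It was singled out after its values were seen. Of all shared regions, 4.41% had both E2 ratios at least as high as its smaller one. For Cxcl-a this share was 3.22%, with folds of 1.51 for E2 over untreated and 1.53 (0.922 to 2.58) for Dex+E2 over Dex. Both E2 libraries lay above both others at 5 sites (20.6% of all shared regions), Cxcl-c, Cxcl-n, Cxcl-s, Ccl-j and Ptgs2-f, and below both others at 6 (19.8%), Cxcl-h, Cxcl-w, Ccl-b, Ptgs2-b, Ptgs2-c and Il6-a. The E2 density was the lowest of the 4 at 17 of 23 sites as deposited, against 79.8% of all shared regions.

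Both hormones over untreated gave 0 sites 2-fold higher (7.19% of all shared regions) and 0 lower (1.58%). The median log2 ratio was −0.16, against 0.01 over all shared regions. Intervals were below 1 at 7 sites (30.4%, against 16.7% of all shared regions), Cxcl-h, Cxcl-q, Cxcl-r, Cxcl-w, Ccl-b, Ptgs2-i and Il6-a. They were above 1 at 3 sites (13.0%, against 19.0% of all shared regions), Cxcl-k, Cxcl-s and Ptgs2-f. The 3 comparisons with untreated cells share that library, so their values for a site are not independent. Side by side, Dex, E2 and Dex+E2 over untreated were 1.74, 0.795 and 1.60 at Cxcl-k. The same folds were 1.20, 1.82 and 1.70 at Cxcl-s and 0.533, 0.847 and 0.598 at Ptgs2-i. The value after both hormones lay nearer to Dex at Cxcl-k and nearer to E2 at Cxcl-s.

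**Figure D4:**
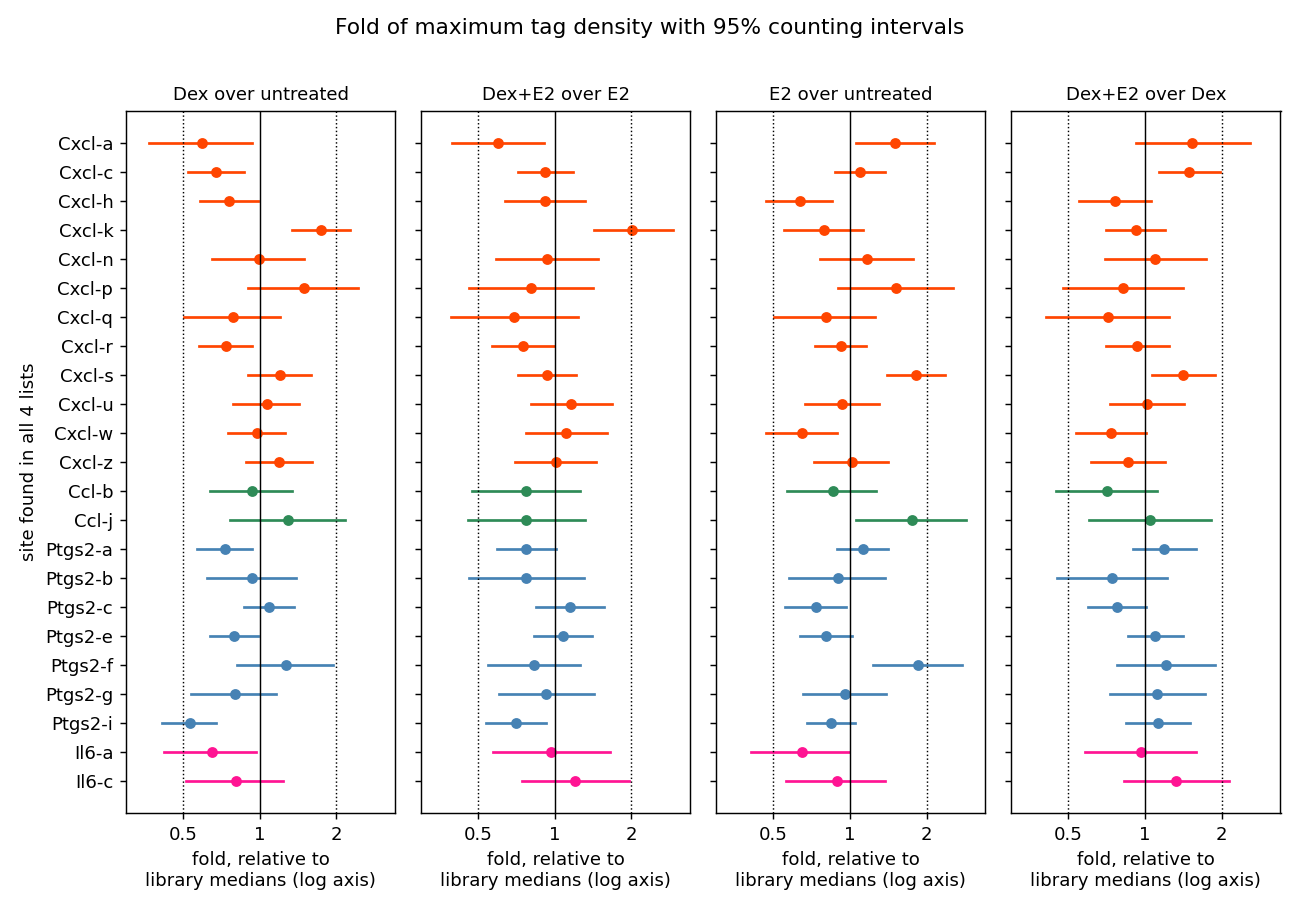
Fold of maximum density relative to the library medians (log axis) at the 23 sites for Dex over untreated, Dex+E2 over E2, E2 over untreated and both hormones over Dex, with dots for the fold and bars for 95% counting intervals, colored by window. The bars of Cxcl-k lie wholly to the right of 1 in both Dex panels and those of Cxcl-s in both E2 panels, and most other bars cross 1.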

How the data were processed

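DNase-seq was done in 4 libraries, 1 per treatment, and grouped by the treatment label. Regions were listed per library by the authors on mm9, with CASAVA 1.8 named and no role stated, per the submitters' processing notes; the region caller is not given in the sources used here. The deposited maximum and average tag densities are signal values scaled per library by the authors to an unstated total. The Z score and its p-value, deposited by the authors, belong to each region against its own library; p-values were not used. In each library every maximum density divided by one common step gave a whole number (tolerance 0.02 tags), taken as its tags.

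Regions overlapping by at least 1 bp were joined, and a site took the highest value of its regions per library. Ratios were divided by those of library medians over 20687 shared regions. Intervals are exact 95% Poisson or, for folds, Clopper-Pearson intervals, with summit tags taken as plain counts. A call is 2-fold. Members, windows and tests were chosen with earlier results of these data known. All sites of the windows are named. The pathway genes listed in the design were not analysed, since no mm9 annotation was used. Functions were tested on simulated data. Tools were SciPy 1.17.1, NumPy 2.4.6 and pandas 2.3.3 in Python 3.11.15, with figures from Matplotlib 3.10.9.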

Additional observations from a re-analysis of the deposited data

How the results depend on the processing

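With densities as deposited, 15 sites were at least 2-fold lower with Dex, 18 with E2 and 13 with both hormones, each over untreated, against 0 relative to the medians. The median log2 ratios became −1.14, −1.68 and −1.13, and that of Dex+E2 over E2 became 0.47 in place of −0.12; this follows from leaving the medians out. The site Cxcl-k, 2-fold higher in Dex+E2 over E2, was not called with the upper quartile, the denser 50% of shared regions, average densities or regions joined within 150 bp (0 sites each); the upper quartile and the denser 50% gave the same scaling. With average densities 2 sites were 2-fold higher in E2 over untreated, Cxcl-s (log2 1.37) and Ptgs2-f (1.30), against 6.57% of all shared regions, and 1 was 2-fold lower in Dex+E2 over untreated, Cxcl-q (−1.16), against 2.23%; with maximum densities there were 0 each. A minimum density of 10 left 29 of 48 sites and 11 of 23 in all 4 lists, and 14 of 23 were covered over at least 50% of their length in every list. Joining within 150 bp, windows narrowed by 20 kb and lists of equal length moved no count of sites or regions by over 1.5 times; with equal lists the windows held 35 untreated, 34 Dex, 23 E2 and 28 Dex+E2 regions. Widths of the listed regions, over which densities were averaged, differed between libraries. Cxcl-s had 2201 bp in untreated cells and 633 bp with E2, and Ptgs2-f had 1316 and 597 bp. Cxcl-q had 833 bp in untreated cells and 252 bp with both hormones. The cause of the changes with average densities was not tested. Of the 115 ratios of single sites, 82 left their counting interval with deposited densities, 8 with average densities and 0 under the other settings. The only called ratio, Cxcl-k in Dex+E2 over E2, kept its sign. Some ratios short of 2-fold did change sign, such as the log2 ratio of E2 over untreated at Cxcl-r. It was −0.12 with maximum and 0.34 with average densities. The 13 to 27 tags at the weakest summit of each list limit what can be told apart. No paired analysis was possible because each treatment had 1 library.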
